A study of Homo sapiens with 97 samples.

Results

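Olfactory receptor genes form the largest gene family of the human genome, and they lie in tandem clusters on several chromosomes. Here 9 such clusters were taken as fixed spans of the hg19 build, and the region lists of a study of DNA replication around double-strand breaks were read within them. The spans cover 10.6 Mb, hold 80 of the 22719 nuclear timing intervals of the series, and are defined by position, with no measured value in the rule.

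Each olfactory receptor is a membrane receptor that detects odorants, and a mature olfactory sensory neuron expresses 1 allele of 1 receptor gene and keeps the other receptor genes silent in compact chromatin. In cells outside the olfactory epithelium the clusters are known as silent, A+T-rich sequence. Replication timing is the order in which stretches of a chromosome are copied during S phase. Gene-rich, active sequence tends to be copied early, and silent sequence late. Replication begins at origins, and nascent strand sequencing (NS-seq) maps origins by isolating short new DNA strands that still carry the RNA primer with which they began.

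The series holds 97 samples in 50 groups, and 6 lists of regions were deposited with them. The timing lists, named early, mid-early, mid-late and late, belong to untreated wild-type U2OS cells, an osteosarcoma line. The first pair was deposited under a merged sample of G1 DNA, and the second pair under a merged sample of S phase DNA. The NS-seq list comes from wild-type AsiSI-U2OS cells, which carry the restriction enzyme AsiSI as a fusion that 4-hydroxytamoxifen (4OHT) brings into the nucleus. NS-seq was made from 2 samples with 300 nM 4OHT for 4 h and 2 control samples without treatment. The merged peak list was deposited under an input sample, and the labels do not say which libraries were merged in it. The list of break sites holds AsiSI recognition sites bound by MRE11, a nuclease that binds broken DNA ends. It comes from LIG4 knockout HCT116 colorectal carcinoma cells with AID-tagged RAD21 after the same 4OHT treatment. LIG4 is the ligase of end joining, and RAD21 is a subunit of cohesin. All are cancer cell lines, and none is an olfactory cell. The lists carry no replicate values, so no comparison below has a test. Intervals are exact at 95% confidence and cover counting error only.

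The spans are named here by chromosome band. In hg19 they run, in Mb, from 4.4 to 6.2 (11p15.4), 48.2 to 51.5 (11p11), 55 to 56.5 (11q11) and 123.6 to 124.3 (11q24) on chromosome 11. On chromosome 1 they run from 158.3 to 158.8 (1q23) and from 247.6 to 248.9 (1q44). The remaining 3 are 20.2 to 20.7 on chromosome 14 (14q11), 29 to 29.6 on chromosome 6 (6p22) and 125.2 to 125.6 on chromosome 9 (9q33). In the gene order of RefSeq GRCh38.p14, the runs of genes that these clusters are known by hold 230 olfactory receptor genes that code for a protein, 183 olfactory receptor pseudogenes and 27 other coding genes. Pseudogenes, counted here as all loci with a receptor symbol that are not listed as protein-coding, made up 44.3% of the receptor loci. That order is of another build, and whether each gene lies within the hg19 span was not checked.

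Base composition was read at the gene starts, and not over the whole clusters. RefSeq gives a window of 250 bases before and 50 bases after the gene start for 183 of the 230 coding genes, or 79.6%, which is under the 80% set as the minimum for a comparison. In 4 clusters (11q11, 1q23, 1q44 and 6p22) the share was above that minimum, with 103 of 115 genes matched. In these 103 windows the median G+C content was 36.3%, with quartiles of 32.5% and 40%. Over the 27305 genes with a window in the table the median was 58.3%, with quartiles of 46.7% and 67.7%. The median number of CG dinucleotides was 1 in the receptor windows and 14 over all genes. At most 2 CG were present in 84 of the 103 receptor windows (81.6%) and in 18.99% of all windows. The medians by cluster were 33.3% G+C at 11q11, 37.2% at 1q44, 39% at 6p22 and 41.7% at 1q23, and all 4 lay below the lower quartile of all genes.

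**Figure D1:**
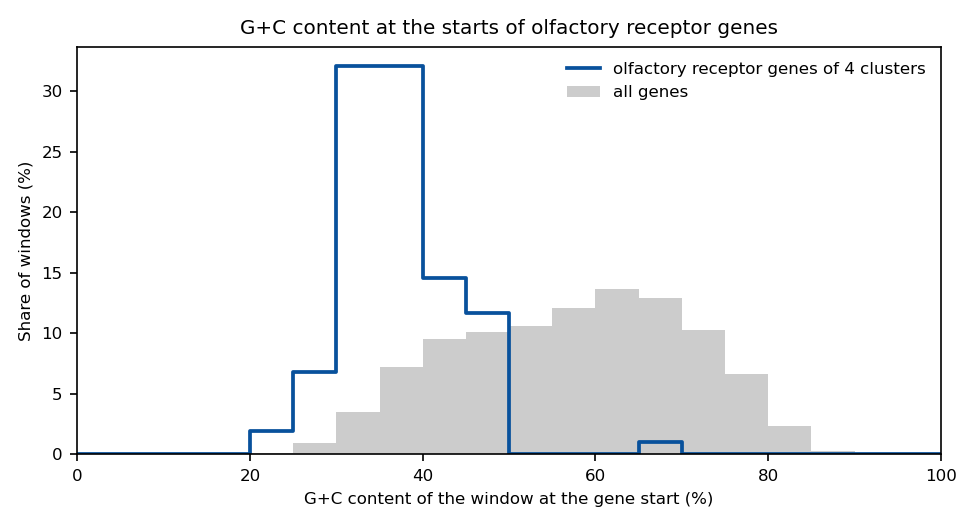
Share of windows (y axis, percent) by G+C content (x axis, percent) for the 103 olfactory receptor gene starts of 4 clusters (line) and for 27305 genes (grey bars). The receptor windows centre on a median of 36.3% and all windows on 58.3%.

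The 250 bases before the start of 3 genes are shown as examples of this sequence. Each stands in the middle of its cluster's windows ordered by G+C content (the lower of a middle pair), and other windows share its value or lie close to it. They come from the RefSeq table for GRCh38.p14, on the plus strand, with every CG in capitals. The motif is CG, which reads the same on both strands, and 93.6% of all 250-base windows hold at least 1. OR4S2 lies in the 11q11 cluster at chr11:55648077-55648326, OR2W3 in the 1q44 cluster at chr1:247895337-247895586 and OR2J3 in the 6p22 cluster at chr6:29107808-29108057.
OR4S2: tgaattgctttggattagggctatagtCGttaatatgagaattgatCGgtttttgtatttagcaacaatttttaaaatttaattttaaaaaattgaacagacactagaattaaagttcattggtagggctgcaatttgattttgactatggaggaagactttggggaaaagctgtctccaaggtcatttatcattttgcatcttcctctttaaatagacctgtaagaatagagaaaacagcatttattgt
OR2W3: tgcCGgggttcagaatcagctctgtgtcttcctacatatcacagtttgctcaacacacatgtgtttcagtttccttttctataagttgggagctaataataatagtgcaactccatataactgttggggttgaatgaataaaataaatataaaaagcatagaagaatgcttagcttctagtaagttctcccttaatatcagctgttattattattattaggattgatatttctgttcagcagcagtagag
OR2J3: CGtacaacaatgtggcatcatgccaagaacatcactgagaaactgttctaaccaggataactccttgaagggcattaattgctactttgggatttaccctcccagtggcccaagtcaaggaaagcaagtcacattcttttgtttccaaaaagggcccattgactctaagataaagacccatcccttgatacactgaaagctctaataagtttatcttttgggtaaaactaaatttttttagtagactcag
The stretch before OR4S2 has 31.2% G+C and 2 CG, the stretch before OR2W3 34.8% and 1 CG, and the stretch before OR2J3 39.6% and 1 CG. The deposited lists hold no signal at single gene starts, so these stretches describe the loci and were not tied to a timing value.

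The clusters were later replicating than the genome and than the sequence beside them. Pooled over the 9 spans, 54.32% of listed bases were late (5.76 of 10.6 Mb), 29.6% mid-late, 15.3% mid-early and 0.826% early. In the 1 Mb flanks on both sides, 17.4 Mb in all, 6.09% of bases were late, 35.7% mid-late, 34.99% mid-early and 23.2% early. Over all nuclear sequence the 4 classes were near equal, with 24.9% late and 25.5% early. The late share of the spans was therefore 48.2 points above that of the flanks. Part of this share rests on wide intervals: with timing intervals longer than 1 Mb left out, the late share was 33.2% and the difference from the flanks 28.3 points. Those wide intervals lie at 11p11 and 11q11.

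Scored from 1 for early to 4 for late and weighted by bases, the mean class rank was 3.37 in the spans, 2.25 in the flanks and 2.502 over all nuclear sequence. The ranks of 9q33 (2.16) and 14q11 (2.05) were below that of all nuclear sequence. In 8 of the 9 clusters the mean rank was above that of both flanks, against 22.4% of 2901 genome windows of 1 Mb set against both neighbouring windows. The exception was 14q11, which lay between its flanks. For 11p11 this rests on a mid-early interval of over 1 Mb that fills most of its right flank. Without that interval the right flank keeps 0.115 Mb with a mean rank of 3.65, above the 3.58 of the span, and 7 of 9 clusters were later than both flanks. The left flank of 11q11 then keeps 0.340 Mb with a mean rank of 3.90, below the 3.99 of the span. The early share was below that of the flanks in 9 of 9 clusters, against 41.9% of windows, and the late share was above it in 6, against 28.9%.

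Of the 9 clusters, 3 were mostly late, meaning over 50% of listed bases. As background, 24.1% of the 2947 non-overlapping 1 Mb windows of chromosomes 1 to 22 and X were mostly late, and 25% of 0.5 Mb windows. On chromosome 11, which holds 4 of the spans, the share was 18.5% of 135 windows. No early sequence was listed in 7 of 9 clusters, against 46.1% of 1 Mb windows. No late sequence was listed in 3 of 9 clusters, against 51.8% of 1 Mb and 59.7% of 0.5 Mb windows. With mid-late and late sequence joined, 7 of 9 clusters were over 50% later-replicating, against 51.7% of 1 Mb and 51.4% of 0.5 Mb windows; the 2 others were 9q33 and 14q11. The spans run from 0.4 to 3.3 Mb in length, so neither window size matches them all.

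**Figure D2:**
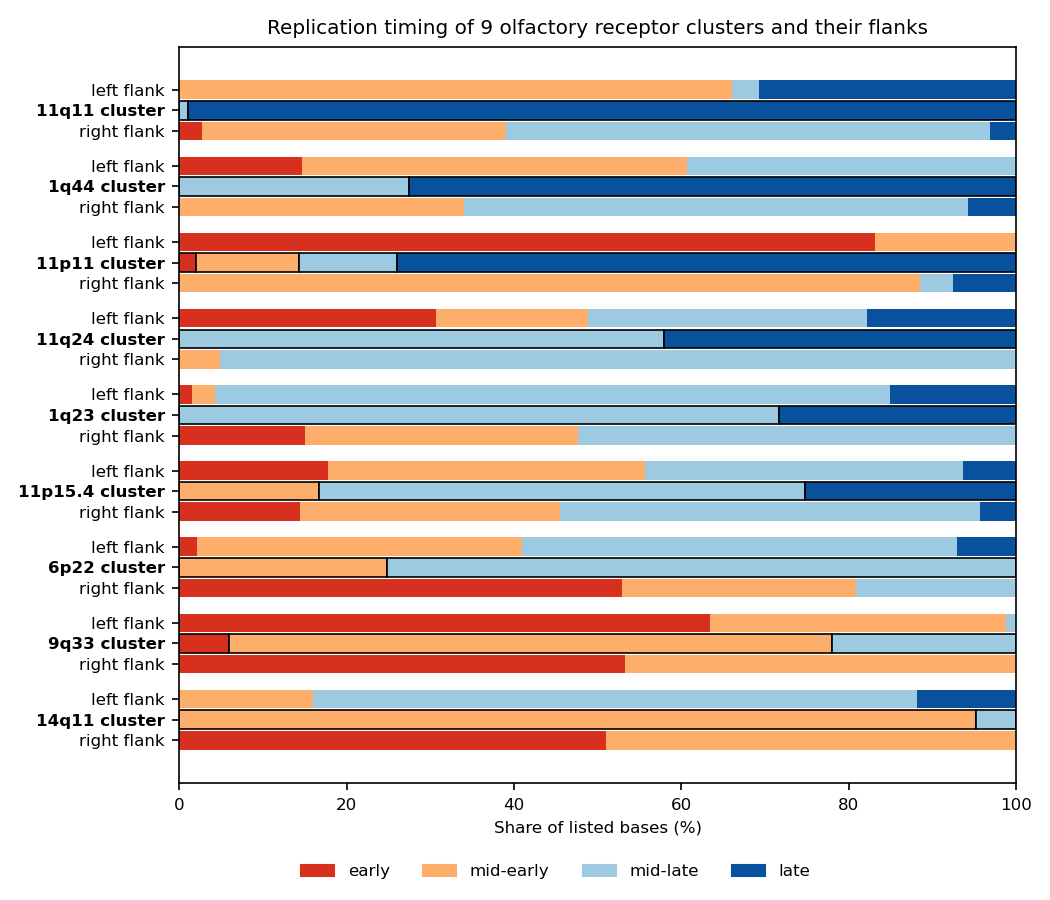
Share of listed bases (x axis, percent) in each timing class, from early (red) to late (dark blue), for each of the 9 clusters (outlined bars) between its left and right 1 Mb flanks, ordered by mean class rank. The late share runs from 98.9% at 11q11 to 0% at 6p22, 9q33 and 14q11.

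The 11q11 cluster was late nearly throughout. It holds a run of the OR4, OR5 and OR8 subfamilies, with 46 coding receptor genes and 53 pseudogenes in the RefSeq order and TRIM51 as the only other coding gene. Late sequence made up 98.9% of the span and mid-late sequence 1.06%, giving the highest mean rank of the 9, at 3.99. The late sequence was 1 interval of 1.79 Mb, chr11:54693101-56484100, of which 82.9% lies in the span. Among 1783 late domains of the genome, with neighbouring late intervals joined, 97 (5.44%) were longer, and the median was 0.135 Mb. The left flank was 66.0% mid-early and 30.7% late, and the right flank 57.9% mid-late and 3.14% late. The late interval thus continued past the left edge of the cluster and ended just inside the right edge.

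At 1q44, late sequence made up 72.5% of the span and mid-late sequence the other 27.5%, with a mean rank of 3.73. This cluster carries OR2T and other OR2 genes near the end of the long arm, with 43 coding genes and 13 pseudogenes. GCSAML and TRIM58, the latter an erythroid ubiquitin ligase gene, lie in the same run. The longest late domain was 0.802 Mb, chr1:247901301-248703000, and lay wholly in the span. A second late domain of 0.141 Mb followed after a mid-late gap of 0.029 Mb. The left flank held no late sequence, and the right flank, cut to 0.351 Mb by the chromosome end, held 5.79%.

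The 11p11 cluster, beside the centromere, was 74.0% late with a mean rank of 3.58. It has 9 coding receptor genes, mostly of the OR4 subfamilies, and 19 pseudogenes (67.9%), the highest pseudogene share of the 9. FOLH1, which encodes a glutamate carboxypeptidase, and 3 TRIM family genes are its other coding genes. Its longest late domain, chr11:48881101-50752800, spans 1.87 Mb and lies wholly in the span; 88 late domains of the genome (4.94%) were longer. The left flank was 83.1% early, so that the mean rank rose by 2.41 from the left flank to the span, the widest step of any cluster to a flank. The first 0.0641 Mb of the span was still early, followed by short mid-early and mid-late domains. The right flank was 88.5% mid-early and runs into a single mid-early interval of 3.05 Mb, chr11:51614601-54660100. That interval covers the centromere, where hg19 holds an unsequenced gap, and it also makes up most of the left flank of 11q11. With this interval left out, the late share of sequence within 0.25 Mb of the 9 clusters was 18.6% in place of 18.0%. The interval fills little of that step and weighed more further out. At 1.5 to 1.75 Mb the early share was 56.5% without it, in place of 49.5%. The difference in late share between spans and 1 Mb flanks was then 47.6 points in place of 48.2.

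Mid-late sequence made up most of 11q24, 1q23, 11p15.4 and 6p22. The 11q24 cluster, with OR8, OR10 and OR6 genes (22 coding, 21 pseudogenes), was 57.9% mid-late and 42.1% late. It alternated between these classes, with 3 late domains of 0.122 to 0.205 Mb, the longest of which lies 13.1% in the span. The 1q23 cluster, with OR10 and OR6 genes (12 coding, 6 pseudogenes), was 71.7% mid-late and 28.3% late. Its 3 late domains were short, up to 0.0775 Mb, and neither cluster held early or mid-early sequence. Flank sequence on the left of 1q23 was itself 80.6% mid-late, so its mean rank exceeded that flank by 0.19 only.

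The 11p15.4 cluster holds OR51 and OR52 genes, the class I receptors related to those of fish, with 55 coding genes and 47 pseudogenes. It also surrounds the beta-globin genes HBB, HBD, HBG1, HBG2 and HBE1 and the antiviral genes TRIM5 and TRIM22. Mid-late sequence made up 58.1%, late sequence 25.2% and mid-early sequence 16.7%, with 4 late domains of up to 0.179 Mb between bases 4574501 and 5422700. The mid-early sequence lay further right, between bases 5837901 and 6176800, as 2 domains of 0.212 and 0.0888 Mb. The mean rank of 3.08 compared with 2.39 in the flanks.

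The 6p22 cluster lies beside the class I genes of the major histocompatibility complex and has 14 coding receptor genes of the OR2, OR12 and related subfamilies, with 10 pseudogenes. It was 75.2% mid-late and 24.8% mid-early, with no late and no early sequence. Its right flank was 52.9% early, and its left flank 51.9% mid-late and 7.06% late. The mean rank of 2.75 exceeded that of the left flank by 0.11 and that of the right flank by 1.09.

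The earliest of the 9 were 9q33 and 14q11, which were mostly mid-early. At 9q33, a cluster of OR1 and OR5C genes with 14 coding genes and a single pseudogene, 72.1% of the span was mid-early, 22.1% mid-late and 5.88% early. It was the later part of an early neighbourhood: its flanks were 58.38% early and had a mean rank of 1.42, against 2.16 in the span. At 14q11, with OR4 and OR11 genes (15 coding, 13 pseudogenes), 95.2% of the span was mid-early and 4.82% mid-late. Its left flank was 72.2% mid-late and 11.9% late, and its right flank 51.0% early. The cluster lay on the slope between them, with a mean rank of 2.05 against 2.96 on the left and 1.49 on the right.

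**Figure D3:**
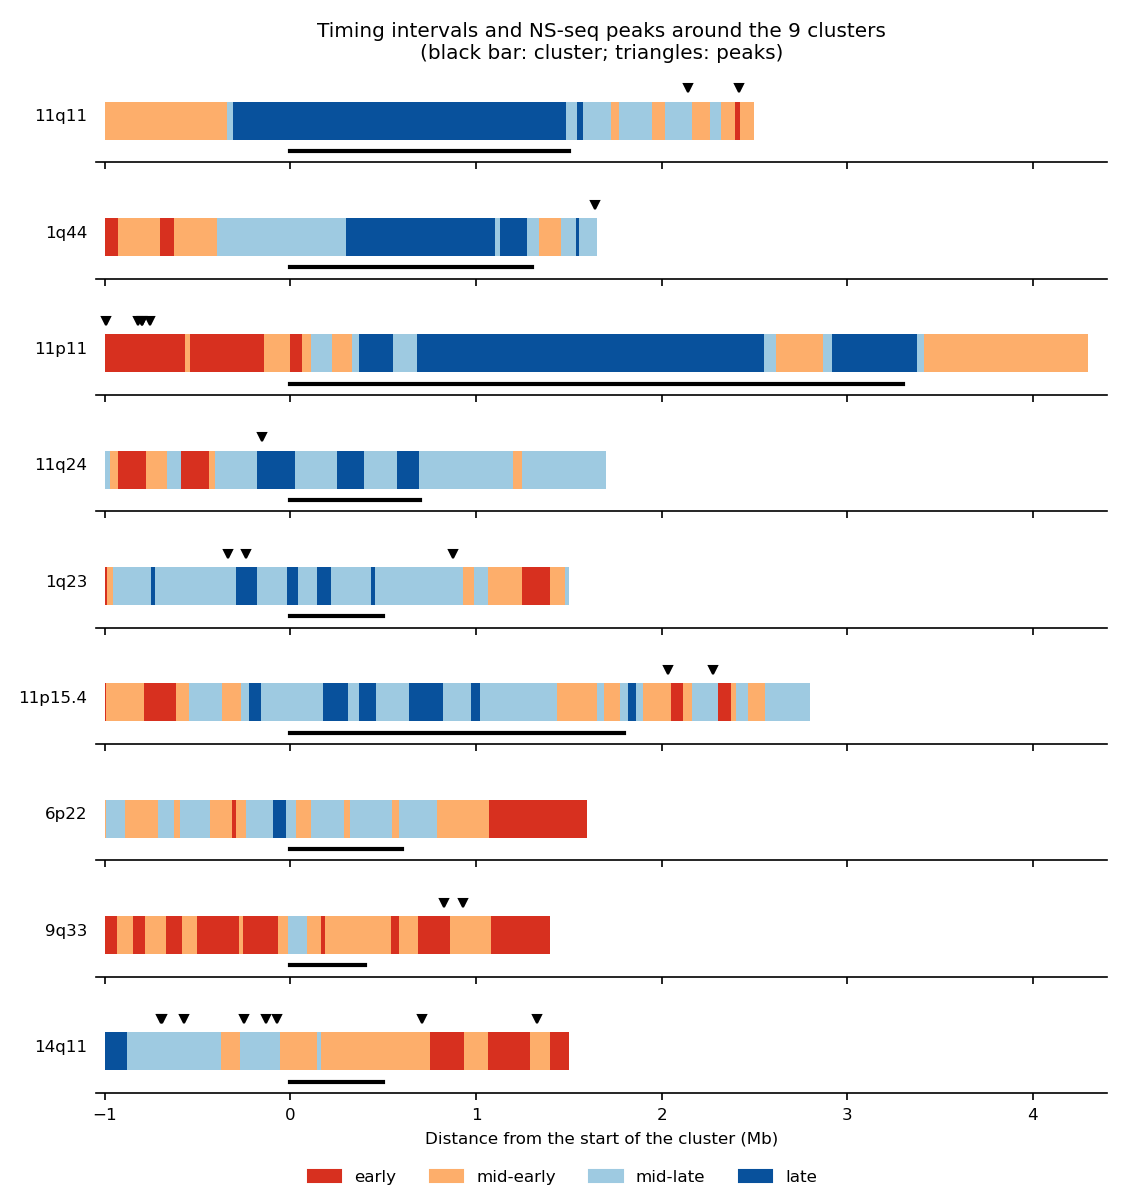
Timing intervals (coloured blocks, early red to late dark blue) and NS-seq peaks (black triangles, some overlapping) along each cluster and its 1 Mb flanks, with distance from the start of the cluster on the x axis (Mb) and the cluster marked by a black bar. Single late blocks fill most of 11q11 and 11p11, mid-late and late blocks alternate at 11q24 and 1q23, and 0 triangles stand above a black bar.

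The clusters also differed in how often the timing class changed. Over the 9 spans there were 49 changes, or 4.62 per Mb, beside 4.53 per Mb over all nuclear sequence. The rate was 0.667 per Mb at 11q11, 3.08 at 1q44 and 3.33 at 11p11, the 3 mostly late clusters. It was 10 per Mb at both 1q23 and 6p22, 7.5 at 9q33, 7.14 at 11q24, 6.67 at 11p15.4 and 4 at 14q11. These counts rest on 1 to 12 changes per cluster.

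Among the clusters read, the longer ones tended to have the higher mean ranks. The order was not strict: 11p15.4 (1.8 Mb, rank 3.08) lay below 11q24 (0.7 Mb, 3.42). Likewise 11p11 (3.3 Mb, 3.58) lay below 11q11 (1.5 Mb, 3.99). Over the 9 spans, Spearman's rho between length and mean class rank was 0.67, and between length and late share 0.71. A further 11 olfactory receptor clusters, from 0.2 to 0.7 Mb long, were read in the same way, among them 7q35, 17p13 and the OR5 genes of 11q12. Over the 20 clusters together, rho between length and mean rank was 0.81. The 4 clusters of at least 1 Mb had mean ranks from 3.08 to 3.99. Of these 3 were mostly late, against 24.1% of 1 Mb windows of the genome. The 16 shorter clusters had mean ranks from 1.04 to 3.42 with a median of 2.14. Mostly late were 0 of them, against 25% of 0.5 Mb windows. Early sequence was listed in 8 of the 16 shorter clusters, while 46.1% of 1 Mb windows of the genome held no early sequence. The points share 1 set of timing lists, several lie on the same chromosome, and the ends of the spans were set in steps of 0.1 Mb, so the coefficients are a description of these clusters.

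**Figure D4:**
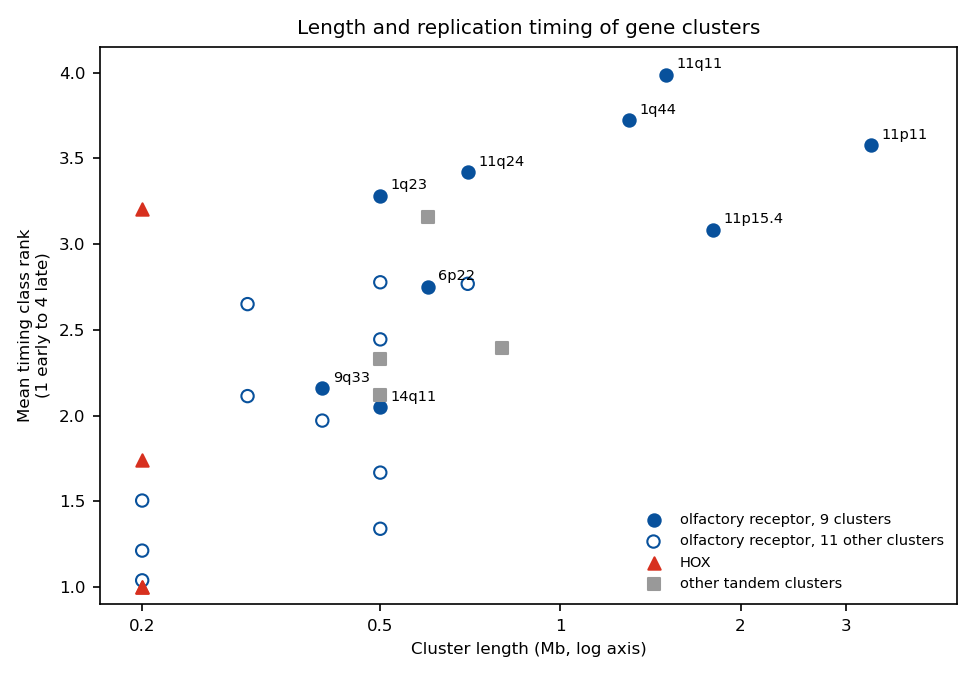
Mean timing class rank (y axis, 1 early to 4 late) by cluster length (x axis, Mb, log scale) for the 9 olfactory receptor clusters (filled circles), 11 others (open circles), 4 HOX clusters (triangles, 2 of which coincide at rank 1) and 4 other tandem clusters (squares). The 4 olfactory receptor clusters of at least 1 Mb lie between 3.08 and 3.99.

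As a group the 11 other clusters did not share the late timing of the 9. Pooled over 4.3 Mb they were 24.5% early, 42.9% mid-early, 30.9% mid-late and 1.71% late, with a mean rank of 2.10. Of these clusters 3 were later than both flanks, 4 earlier than both and 4 between them. Of 1 Mb windows, 22.4% were later than both neighbouring windows. On chromosome 11, the flanks of the OR2AG, OR5P, OR5A and OR5B clusters overlap other receptor clusters, among them 11p15.4. The OR2AG, OR5P and OR5A clusters are among those earlier than both flanks. The 2 receptor clusters on 19p13 had mean ranks of 1.04 (OR7C genes) and 1.504 (OR7G genes), and 17p13 had 1.34. The 4 HOX clusters, which hold developmental transcription factor genes, were 56.5% early with a mean rank of 1.74, but differed widely: HOXB and HOXC were 100% early, while HOXD held no early sequence and had a mean rank of 3.20, above that of 11p15.4. Protocadherin, type I interferon, taste receptor type 2 and keratin-associated protein clusters, which like the receptors are tandem gene arrays, were 49.9% mid-late and 4.01% late, with a mean rank of 2.51. The keratin-associated protein cluster held mid-late and late sequence alone, with a mean rank of 3.16. HOXD and 3 of these 4 tandem clusters (all but type I interferon) were also later than both of their flanks.

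Late sequence fell off over a short distance from the clusters. The late share was 54.32% inside the spans, 18.0% in the first 0.25 Mb outside and 2.43% from 0.25 to 0.5 Mb. From there to 2 Mb it stayed between 0% and 4.96%. Early sequence rose over the same distances, from 0.826% inside to 7.55%, 23.2% and 28.0% in the next 3 steps of 0.25 Mb, and reached 49.5% at 1.5 to 1.75 Mb. In the outer steps 11p11 and 11q11 share sequence, which was counted for both.

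**Figure D5:**
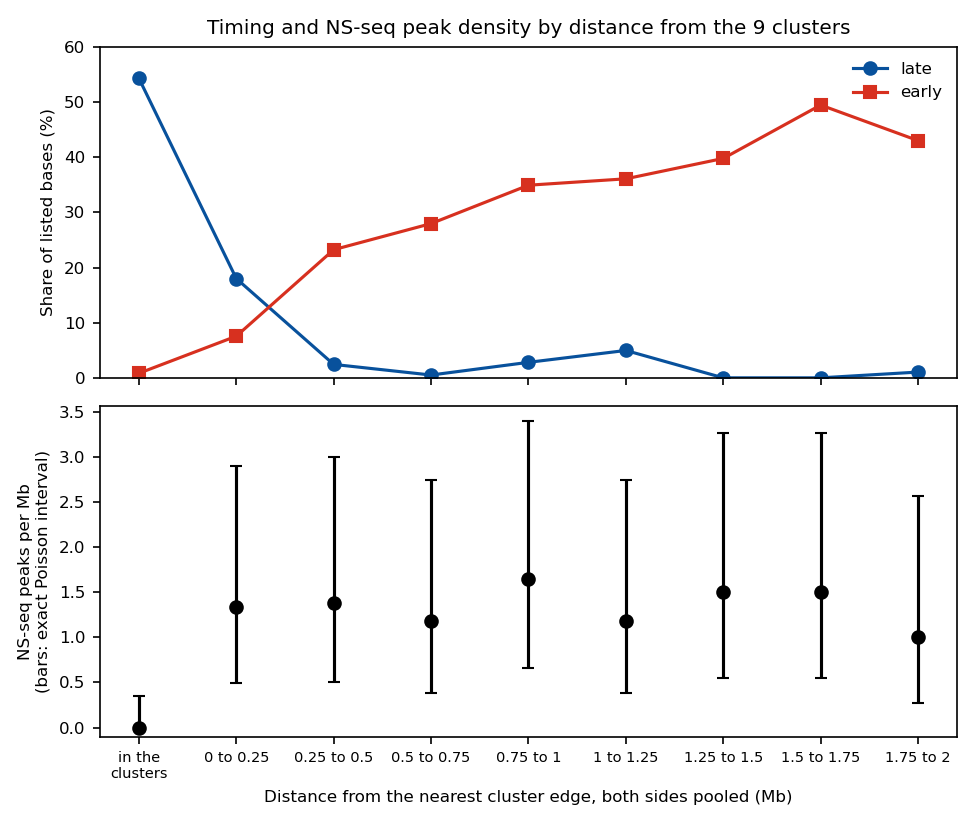
Top, share of listed bases that are late (circles) or early (squares) against distance from the nearest cluster edge in steps of 0.25 Mb; bottom, NS-seq peaks per Mb in the same steps, with exact Poisson intervals. Late sequence falls from 54.32% inside to 2.43% at 0.25 to 0.5 Mb, while peak density is 0 inside and 1.00 to 1.65 per Mb in the steps outside.

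No NS-seq peak fell in any of the 9 clusters. The list holds 3733 nuclear peaks, each 1000 bp wide with the authors' score, placed here by their midpoints. With 0 peaks in 10.6 Mb, the exact Poisson interval of the density ran from 0 to 0.348 peaks per Mb. The flanks held 24 peaks, or 1.38 per Mb (0.886 to 2.06), and all nuclear sequence 1.24 per Mb. The ratio of the densities, spans over flanks, was 0, with an upper bound of 0.272. That bound was 0.451 without 11p11 and 0.424 for peaks at or above the median score. As background, 66.7% of 1 Mb windows and 77% of 0.5 Mb windows of the genome held no peak, so most single stretches of these sizes are empty. That share was not taken for longer stretches, and 4 of the clusters are longer than 1 Mb. At the density of all nuclear sequence, 11p11 would hold 4.09 peaks, 11p15.4 2.23, 11q11 1.86 and 1q44 1.61. Chromosome 11, with 1.04 peaks per Mb, had no peak in 69.6% of its 1 Mb windows.

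Late sequence held few peaks elsewhere too. Outside the spans, density was 1.83 per Mb in early, 1.61 in mid-early, 1.20 in mid-late and 0.328 in late sequence. Of mostly late 1 Mb windows 87.9% held no peak, and of the other windows 60%. At these class densities the spans would hold 8.43 peaks, beside 0 observed with an exact Poisson interval up to 3.69. At the overall density the number would be 13.1, and at the class densities of each cluster's own chromosome 7.04. With mid-early intervals over 1 Mb left out, an alternative chosen after seeing the data, it would be 9.13. Such intervals, among them the one over the chromosome 11 centromere with 0 peaks, thus lower the mid-early density of 1.61. Whether mid-early density stays below early density without them was not read. The largest contributions to the 8.43 came from 11p11 (2.04) and 11p15.4 (1.89), and each of the other 7 clusters contributed under 0.8. Peaks that lie close together were counted singly, and the Poisson interval does not allow for such grouping. Restricted to peaks at or above the median score, the number at class densities was 4.43.

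The 24 flank peaks were spread unevenly around the clusters. Mid-late sequence held 11 of them, early sequence 7, mid-early 4 and late 2. The lowest score among them was 10.1, the median 12.1 and the highest 21.2, beside a median of 11.8 for all nuclear peaks. At 14q11 there were 8, of which 6 lay in the left flank, and at 11p11 there were 5, all in its early left flank. The flanks of 6p22 held 0. The peak with the highest score, 21.2, was at chr11:6677066-6678065 to the right of 11p15.4. Density did not change in an ordered way with distance: the 8 steps of 0.25 Mb out to 2 Mb held 4 to 7 peaks each, or 1.00 to 1.65 per Mb.

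Distances from a cluster to its nearest peak ranged widely. The closest was at 14q11, where a mid-late peak at chr14:20126584-20127583 with a score of 12.2 lay 72.4 kb from the left edge. The next were a late peak 150 kb left of 11q24 (chr11:123448902-123449901, score 11.1), a mid-early peak 234 kb right of 11p15.4 (chr11:6433877-6434876, score 10.3) and a late peak 239 kb left of 1q23 (chr1:158059593-158060592, score 12.9). Both flank peaks in late sequence are thus the nearest peaks of a cluster. At 1q44 the nearest peak was mid-late, 340 kb to the right at chr1:249239749-249240748 with a score of 10.4, and at 9q33 it was early, 429 kb to the right at chr9:126029231-126030230 with a score of 16.8.

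The chromosome 11 clusters beside the centromere lay together in 1 peak-free stretch of 9.70 Mb. It ran from an early peak 758 kb left of 11p11 (chr11:47441206-47442205, score 11.9) to a mid-late peak 643 kb right of 11q11 (chr11:57143267-57144266, score 15.2). The stretch includes the interval over the centromere, which held 0 peaks. Stretches at least as long, between peaks or from a peak to a chromosome end, made up 42.7% of the sequence so divided. The longest empty stretch was at 6p22, 25.6 Mb, with the nearest peak 2622 kb to the right (chr6:32222241-32223240, early, score 12.9), and 13.4% of sequence lay in stretches as long. At 11q24 the stretch was 9.75 Mb, at 9q33 3.11, at 11p15.4 3.06, at 1q44 2.75, at 1q23 1.12 and at 14q11 0.782 Mb. For the last 2, over 80% of the sequence so divided lay in stretches as long.

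Among the other olfactory receptor clusters, 10 of 11 held no peak, against 77% of 0.5 Mb windows of the genome. These clusters are 0.2 to 0.7 Mb long, and the share was not taken for shorter windows. The exception was the OR5B cluster of 11q12, with a peak at chr11:58059212-58060211 in mid-late sequence and a score of 11.9. The flanks of these clusters held 29 peaks, or 1.32 per Mb. The HOX clusters held 2 peaks, at HOXA and HOXD, and the other tandem clusters 1, among the keratin-associated protein genes.

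None of the 129 AsiSI sites bound by MRE11 lay in a cluster or in its 1 Mb flanks. The nearest were 1.34 Mb from 6p22, 1.93 Mb from 9q33, 2.78 Mb from 14q11 and 3.404 Mb from 11q24. The distance was 11.3 Mb at 11q11, 16.3 Mb at 11p11, 19.3 Mb at 1q44, 33.7 Mb at 1q23 and 61.6 Mb at 11p15.4. With 129 sites over 3012 Mb of listed sequence, the list is sparse at the scale of these clusters. The site list comes from HCT116 cells and the timing lists from U2OS cells, so a site and a timing class were not measured in the same line. Numbers of peaks with and without breaks could not be told apart in a merged list, and no effect of 4OHT on the clusters was read.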

How the data were processed

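Groups were taken from sample titles. Per the submitters' processing notes, the build was hg19 and MACS2 was among the tools. How reads were aligned and how timing was divided into classes is not given in the sources used, and read depth is unknown. The authors' deposited NS-seq list gives a score per peak with no stated scale, used only to describe and filter peaks. The deposited timing and break lists hold coordinates alone. Intervals were clipped to each span and its flanks of 1 Mb, class shares were taken of listed bases, and regions were placed by midpoint. Density intervals are exact Poisson, and the ratio's bound comes from an exact Clopper-Pearson interval. The counting code was tested on simulated data with known shares and densities. Python 3.11.15, pandas 2.3.3 and scipy 1.17.1 were used. The clusters, the comparison clusters and all lists were chosen with earlier results of these data known. Named regions are all 9 clusters, each cluster's nearest peak and its longest late domain; gene names, flank peaks and single domains beyond these were added after the values were seen. Genes and gene starts come from RefSeq tables for GRCh38.p14. Receptor genes and the ends of each run were found by symbol, and windows were matched by gene identifier. No hg19 genome or annotation was used here. Alternatives varied the flank width, the windows, the wide intervals, the peak score and the clusters included.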

Additional observations from a re-analysis of the deposited data

How the results depend on the processing

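Of 75 alternatives over 9 results (61 planned and 14 chosen after seeing the data), 9 moved and 0 reversed. A further 41 stayed within a range set around the reported value or, for counts, within 1.5 times it. The other 25 rest on a count of 0 peaks that they could not change, and say nothing about stability. Some of the 41 were bound to stay as well. Leaving out 1 cluster takes only its own part from the number of peaks at class densities. No cluster holds a mid-early interval over 1 Mb, so leaving those out could not change the late share. The late share of the clusters, 54.32%, was 37.9% as an unweighted mean over clusters, 33.2% without timing intervals over 1 Mb, and 83.9% with mid-late and late joined. The range for this share treated it as a count among the 80 timing intervals of the spans. These adjoin and differ in length, so that range does not measure counting error. The difference from the flanks, 48.2 points, was 32.0 unweighted and 28.3 without the wide intervals, and its range was given the same width. Mostly late clusters numbered 3, 7 with the classes joined and 1 without the wide intervals. The number of peaks at class densities, 8.43, was 4.43 for peaks at or above the median score and 17.7 at the class densities of the flanks, the latter chosen after seeing the data. In that 17.7, the late density came from only 2 peaks in 1.06 Mb of late flank sequence. It was applied to the 5.76 Mb of late sequence in the spans. Leaving out 1 cluster at a time, the late share ran from 45.4% to 60.3%, the difference from 39.0 to 54.1 points, and the number of peaks at class densities from 6.39 to 7.95. Peak density and ratio are 0 by construction there, and the ratio's upper bound, 0.272, ran from 0.255 to 0.451. Clusters later than both flanks numbered 8, and 7 without mid-early intervals over 1 Mb, an alternative chosen after seeing the data. No paired analysis was possible because the lists pool samples and no result comes from a test. With no replicates and unknown read depth, a region without a peak may still hold origins under the list's score minimum.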
